A study of Saccharomyces cerevisiae with 16 samples.

Results

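The genes described here encode the proteins of the mitochondrial ribosome of budding yeast. They were chosen by symbol: every gene whose symbol starts with MRPL, MRPS or RSM and a digit, or with MRP directly followed by a digit. This gave 66 genes, each with 1 probe, out of 6388 gene probes on the arrays. Of these genes, 37 encode proteins of the large subunit, 28 are counted with the small subunit, and MRP8 belongs to neither. The gene RSM22, counted with the small subunit, encodes a methyltransferase-like protein of its assembly. Of 67 such symbols in the RefSeq annotation only MRP35 had no probe named for it and was not analysed here.

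The study measured RNA of 8 yeast strains on 16 arrays with 2 dyes, 2 arrays for each strain, each against RNA of 1 common reference pool. FCP1 encodes a phosphatase of the tail of RNA polymerase II, and all 8 strains carried an FCP1 allele with a tag labelled flag. One allele is named fcp1-mut, without a statement of its change, and the others are truncations named 1:713, 1:666, 1:609 and 1:594. In another 3 strains, 1:666, 1:609 or 1:594 was combined with cdk8-del, a deletion of the Mediator kinase gene CDK8 (SSN3 in these files). No strain carried cdk8-del with 1:713 or with fcp1-mut, so the deletion could be examined in the 3 shorter truncations only. Cultures were harvested in mid-log growth from a 24-well plate reader. The sources used here do not state the genotype of the reference pool, and its RNA was prepared with a different isolation protocol.

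Mitochondrial ribosomes translate the few messages of the mitochondrial genome, in yeast mainly those of membrane subunits of the respiratory chain and of the ATP synthase. Their RNAs are made from mitochondrial DNA, whereas nearly all of their proteins are encoded in the nucleus, made in the cytosol and imported. Many of these proteins have a counterpart in bacterial ribosomes and others were added in the mitochondrial lineage. In yeast the messages of this group are known targets of the RNA-binding protein Puf3 and rise when cells turn from fermentation to respiration. The Mediator kinase module, which holds Cdk8, is known mainly as a regulator of genes for nutrient use and stress.

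All values are log2 ratios of strain over reference, relative to the typical gene of the array, which was set to 0. The median spot signal of the strains lay between 292.9 and 1055 over local backgrounds of 41 to 71, and between 96.4% and 98.8% of the gene probes were above background. Of the 66 genes, 65 were above background in the strain on all 16 arrays, and RSM28 missed the limit on 1. SSN3 was above background on 0 of 6 cdk8-del arrays and on 10 of 10 others. FCP1 was at -3.49 ± 0.14 in 1:609 and -2.77 ± 0.14 in 1:594 (SE of limma, n = 2 arrays each). LYS2, a lysine synthesis gene often used to mark strains, was at 3.40 in 1:609 and 2.73 in 1:594, but at 0.072 in 1:713 and 0.12 in 1:666. The array measures RNA of whole cultures, in which less RNA per cell and fewer cells that make it cannot be told apart. Nothing says that the 2 arrays of a strain hold separate cultures, so p-values measure the spread between arrays, which may be technical.

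The 66 genes together had medians closer to the typical gene in the 5 strains with CDK8 and lay above it in the 3 strains without. Of the 5, 1:666 was the lowest, with a median of -0.067 over the 66 genes. There 17 of the 66 strain means, 25.8%, were above 0, against 51.3% of all probes. The median of the large-subunit genes was 0.0073 in fcp1-mut, -0.011 in 1:713, -0.068 in 1:666, 0.0071 in 1:609 and -0.038 in 1:594. With cdk8-del it was 0.13 in 1:666, 0.12 in 1:609 and 0.12 in 1:594. For the small subunit the medians of the same strains were -0.044, -0.041, -0.054, -0.022 and -0.038 without the deletion and 0.12, 0.12 and 0.13 with it. The number of the 66 genes above 0 lay between 43 and 56 on the 6 cdk8-del arrays and between 21 and 33 on the 10 others, so these ranges did not overlap. Scaling on the external control RNAs instead put the median of all genes at -0.21, -0.21 and -0.39 in the 3 cdk8-del strains and those of the 66 genes at -0.081, -0.093 and -0.26, which turns their sign. That scaling shifts all genes of an array by the same amount. The distance of the 66 genes above the typical gene, 0.13, 0.12 and 0.13, was thus unchanged by construction. In the 5 other strains it put the median of all genes between -0.70 and -0.46. The 66 genes differed from it by -0.071 to -0.0050, again the same as on the main scale by construction. Plain median centring of the arrays, without a fit along the intensity, put them at -0.031 from the median of all genes in 1:666. There 29 of the 66 were above it. In 1:609 and 1:594 they lay 0.074 and 0.062 above it, and in the 3 cdk8-del strains 0.18, 0.15 and 0.20.

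**Figure D1:**
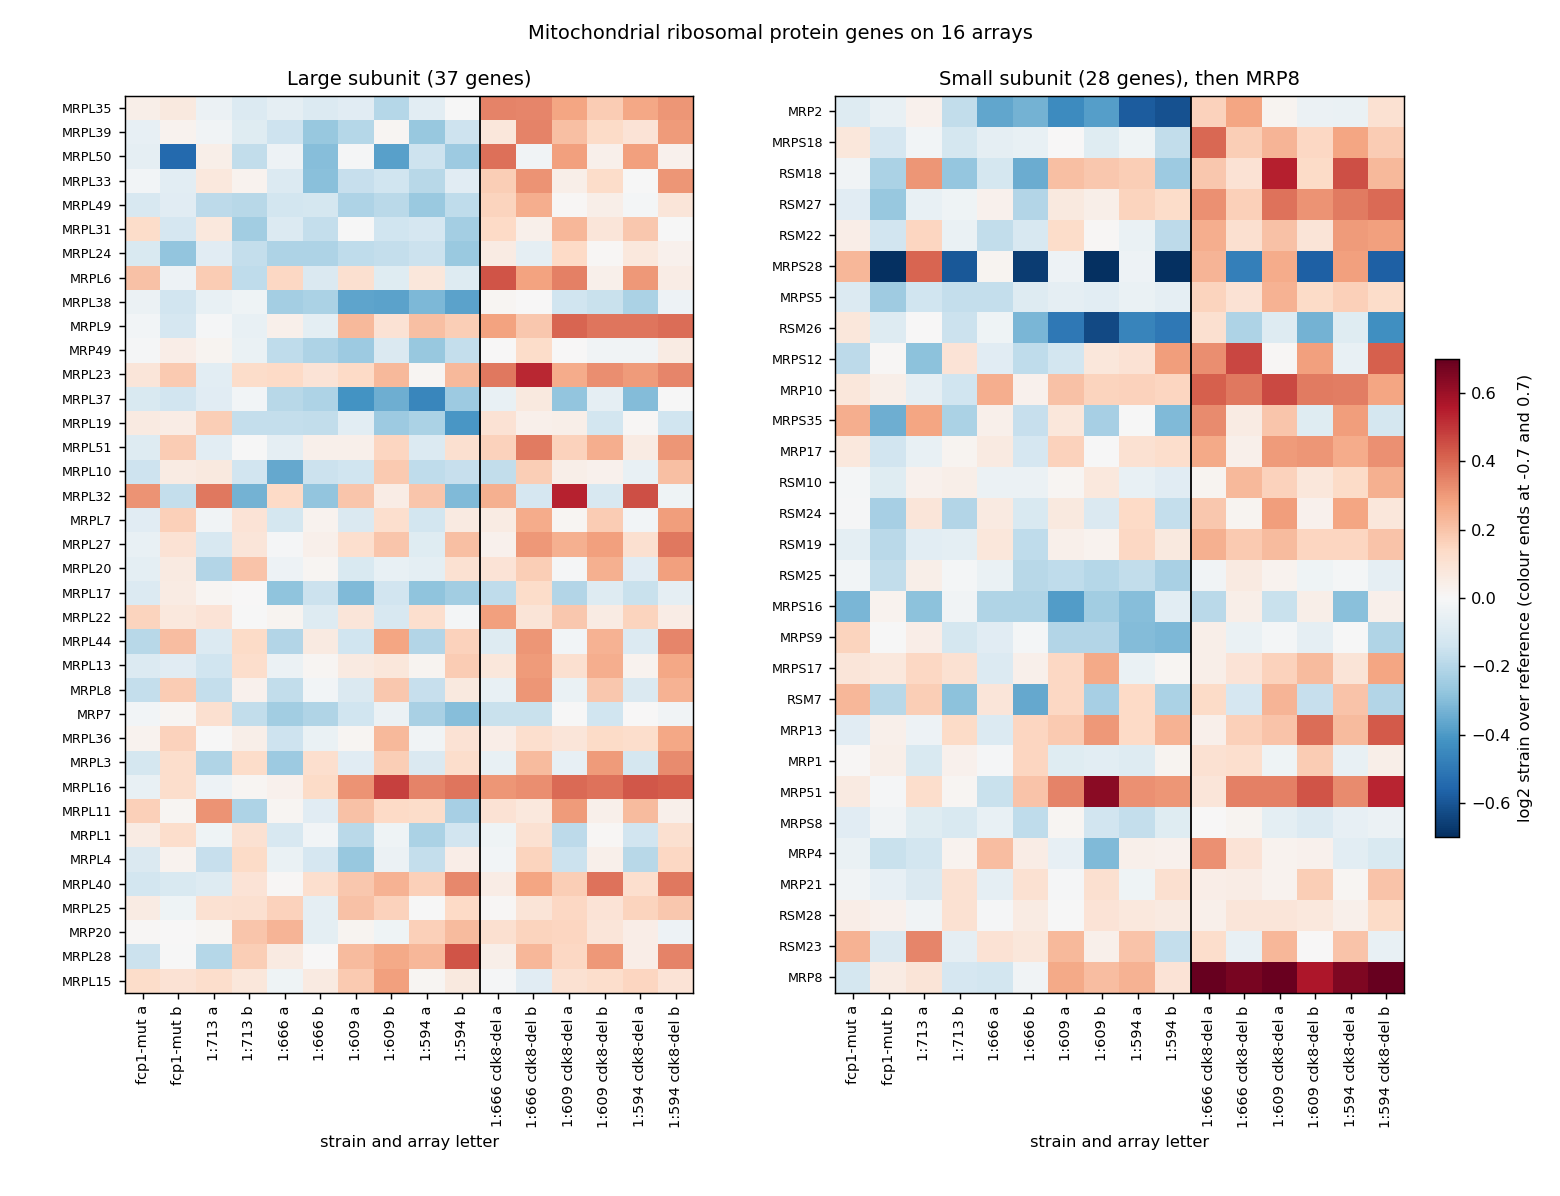
Log2 strain over reference of each gene (rows) on each of the 16 arrays (columns), large subunit on the left, small subunit and MRP8 on the right, rows ordered by their average difference with cdk8-del. The 6 columns right of the black line are the cdk8-del strains, where 43 to 56 of the 66 genes were above 0.

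**Figure D2:**
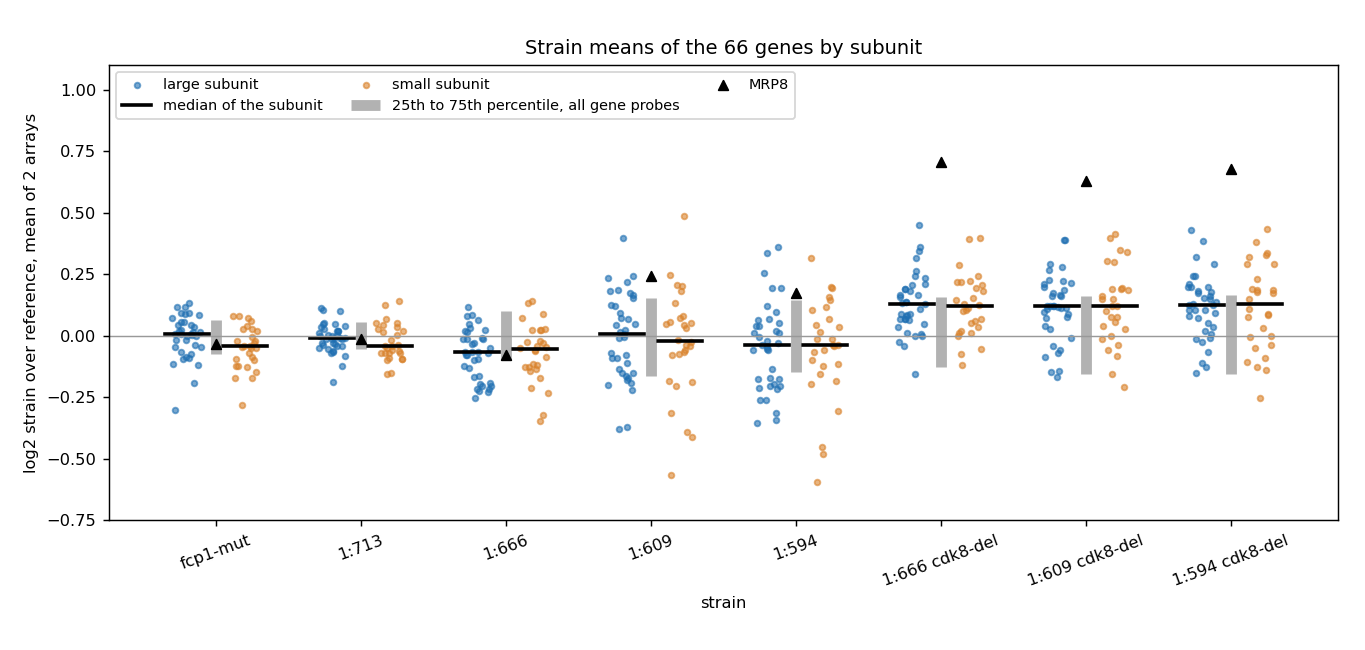
Strain means (2 arrays) of the 37 large-subunit genes, the 28 small-subunit genes and MRP8, as log2 strain over reference, with the median of each subunit as a line and the middle 50% of all 6388 gene probes as a grey bar. The medians lay between -0.068 and 0.0073 in the 5 strains with CDK8 and between 0.12 and 0.13 in the 3 without.

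Tests were made with limma's linear model over all 6388 probes. A call needed a Benjamini-Hochberg adjusted p under 0.01 and more than a 1.7-fold difference, as the series design states. Against the reference 0 of the 66 genes were called in any of the 8 strains, whether the p was adjusted or not. Of all probes, 0.235% were called in fcp1-mut, 0.172% in 1:713, 0.626% in 1:666, 3.12% in 1:609 and 2.25% in 1:594. In the double mutants it was 3.91% for 1:666 cdk8-del, 3.73% for 1:609 cdk8-del and 4.57% for 1:594 cdk8-del. The changes of these genes were mostly under the fold limit, so they are also counted at an adjusted p under 0.05 with no limit on the fold, a rule chosen after seeing this. Genes that meet it are written below as higher or lower, and for all others only values are given.

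In fcp1-mut 0 of the 66 genes were higher and 0 lower in limma at that limit, against 1.19% and 1.17% of all probes. At an unadjusted p under 0.05 it was 1 and 3, against 6.21% and 6.32%. A fit with the array letter as a replicate block, which also removes what the dye orientation shares, gave 1 and 6 at the adjusted limit, against 8.94% and 9.55% of all probes in that fit. In 1:713 the counts were also 0 and 0 (all probes 0.548% and 0.626%), 1 and 2 unadjusted (4.62% and 4.21%), and 0 and 2 with the block (4.92% and 4.87%). In 1:666 limma found 0 higher and 5 lower, which is 7.58% of the 66 against 6.64% of all probes (5.37% were higher). Unadjusted it was 1 and 14, against 12.2% and 13.1% of all probes. With the block it was 2 and 24, or 3.03% and 36.4% of the 66 against 20.7% and 20.5%. The 5 lower without the block were MRP2, MRP49, MRP7, MRPL24 and MRPL38. In the 2 shortest truncations genes passed the limit in both directions: in 1:609, 9 were higher and 12 lower (13.6% and 18.2%, against 15.6% and 18.3% of all probes; 15 and 18 with the block, against 30.3% and 30.3%). The higher ones were MRP10, MRP13, MRP51, MRPL9, MRPL15, MRPL16, MRPL25, MRPS17 and MRP8, and the lower ones included MRP2, MRPL37, MRPL38 and RSM26. In 1:594 it was 5 higher and 12 lower (7.58% and 18.2%, against 14.9% and 15.6%; 12 and 22 with the block, against 29.2% and 28.6%), with MRP51, MRPL9, MRPL16, MRPL28 and MRPL40 as the higher ones. Without the block these shares of the 66 were at or below those of all probes, except for the lower genes of 1:594 and 1:666, which were slightly above.

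In the strains without CDK8 the genes past an adjusted p under 0.05 were mostly higher. In 1:666 cdk8-del 15 of the 66 genes were higher and 0 lower, or 22.7% against 16.9% of all probes, while 12.9% of all probes were lower (34 and 1 with the block, against 29.9% and 26.8%). At an unadjusted p under 0.05, 1 was lower, against 17.5% of all probes. In 1:609 cdk8-del 15 were higher, 22.7% against 17% of all probes, and MRPL38 alone was lower, against 17% of all probes (34 and 5 with the block, against 30.1% and 29.8%). In 1:594 cdk8-del 19 were higher, 28.8% against 18.2%, and 0 lower against 17.2% (36 and 5 with the block, against 31.3% and 29.7%). Unadjusted, 2 were lower there, against 21% of all probes. Of the 122 cytosolic ribosomal protein genes, which share no members with the group, 0 were higher in each of the 3 strains in the same test. Lower were 15, 21 and 18, against 12.9%, 17% and 17.2% of all probes. The excess of higher genes among the 66 depended on the scaling. With median centring 4, 5 and 7 were higher, against 7.01%, 6.62% and 7.11% of all probes. On the external control scale it was 1 in each strain, against 5.04%, 4.02% and 3.19%. With the deposited ratios it was 33, 31 and 31, against 28.8%, 28.7% and 29.4%.

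Among large-subunit genes, the highest means over the 8 strains belonged to MRPL16, MRPL23 and MRPL9. MRPL16 (YBL038W) is the counterpart of bacterial L16, which helps to place tRNA in the ribosome. It was at -0.054 and 0.12 on the fcp1-mut arrays a and b, -0.038 and 0.015 in 1:713 and 0.029 and 0.13 in 1:666. In 1:609 it was at 0.32 and 0.48 and in 1:594 at 0.35 and 0.37, above all 6 arrays just named. The double mutants had 0.31 and 0.33 for 1:666, 0.40 and 0.38 for 1:609 and 0.43 and 0.42 for 1:594. All 10 arrays of these 5 strains were thus above the 6 others, in a gene named for its high mean. How many of all probes show this split of the strains was not counted. The mean was 0.081 in 1:666 and 0.32 in 1:666 cdk8-del, a difference that did not pass the limit of an adjusted p under 0.05 in limma. MRPL9, the counterpart of bacterial L3, had the third widest range of strain means in the subunit, 0.46, from -0.067 in fcp1-mut to 0.39 in 1:609 cdk8-del. MRPL23, the counterpart of bacterial L13, reached 0.45 in 1:666 cdk8-del and had its lowest mean of 0.028 in 1:713.

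The lowest means in the large subunit were those of MRPL37, MRPL38 and MRPL17. MRPL38 (YKL170W), the counterpart of bacterial L14, was at -0.043 and -0.14 in fcp1-mut and -0.055 and -0.030 in 1:713. It was at -0.24 and -0.22 in 1:666, -0.37 and -0.37 in 1:609 and -0.32 and -0.37 in 1:594, lower than the reference in all 3. With cdk8-del it was at 0.011 and 0.00099 in 1:666, -0.14 and -0.15 in 1:609 and -0.22 and -0.037 in 1:594, so both arrays of each double mutant were above both arrays of its truncation. MRPL37 (YBR268W), a protein without a bacterial counterpart, lay between -0.38 in 1:609 and 0.0084 in 1:666 cdk8-del. Its mean in each double mutant was above that of the truncation. The arrays of the 1:594 pair overlapped, with -0.30 and -0.0043 with cdk8-del against -0.46 and -0.25 without. MRPL17, also without a bacterial counterpart, lay between -0.26 in 1:594 and 0.0086 in 1:713. The widest ranges in the subunit were those of MRPL50 (0.48), MRPL35 (0.48) and MRPL9.

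In the small subunit MRP51, MRP10 and MRP13 had the highest means. MRP51 (YPL118W), which in yeast acts with the untranslated leaders of mitochondrial messages, was at 0.062 and -0.0070 in fcp1-mut, 0.12 and 0.011 in 1:713 and -0.16 and 0.20 in 1:666. It reached 0.34 and 0.63 in 1:609 and 0.32 and 0.31 in 1:594, where it was higher than the reference at 0.49 ± 0.097 (limma adjusted p = 0.00285) and 0.31 ± 0.097 (adjusted p = 0.0313). In the double mutants it was at 0.087 and 0.36, 0.35 and 0.44 and 0.33 and 0.53 for 1:666, 1:609 and 1:594, and of the 5 strains just named only 1:666 cdk8-del overlapped with fcp1-mut, 1:713 and 1:666. The share of all probes with such a split was not counted. MRP10, a small protein with paired cysteines, had means of -0.10 in 1:713, 0.14 in 1:666 and 0.18 in 1:609, and between 0.32 and 0.41 without CDK8. MRP13, a protein of the mitochondrial lineage, had its highest mean of 0.33 in 1:594 cdk8-del and its lowest of -0.023 in fcp1-mut.

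MRPS28, RSM26 and MRPS16 had the lowest means in the small subunit, and RSM26, RSM18 and MRP2 the widest ranges, of 0.56, 0.57 and 0.82. RSM26 (YJR101W) is related in sequence to superoxide dismutases. It was at 0.077 and -0.088 in fcp1-mut, 0.0047 and -0.15 in 1:713 and -0.027 and -0.32 in 1:666, and at -0.50 and -0.63 in 1:609 and -0.46 and -0.50 in 1:594. These last 4 arrays lay below all others, a split for which the share of all probes was not counted. With cdk8-del the values were 0.11 and -0.22 in 1:666, -0.089 and -0.33 in 1:609 and -0.082 and -0.43 in 1:594, and in each of the 8 strains array a was above array b. MRPS16, the counterpart of bacterial S16, had its lowest mean of -0.32 in 1:609 and its highest of -0.059 in 1:609 cdk8-del. RSM28, by contrast, had the narrowest range of the 66 genes, 0.061, against a median of 0.33. The plot of 6 genes by array shows MRP8, MRP2, RSM26, MRP51, MRPL16 and MRPS28 side by side.

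**Figure D3:**
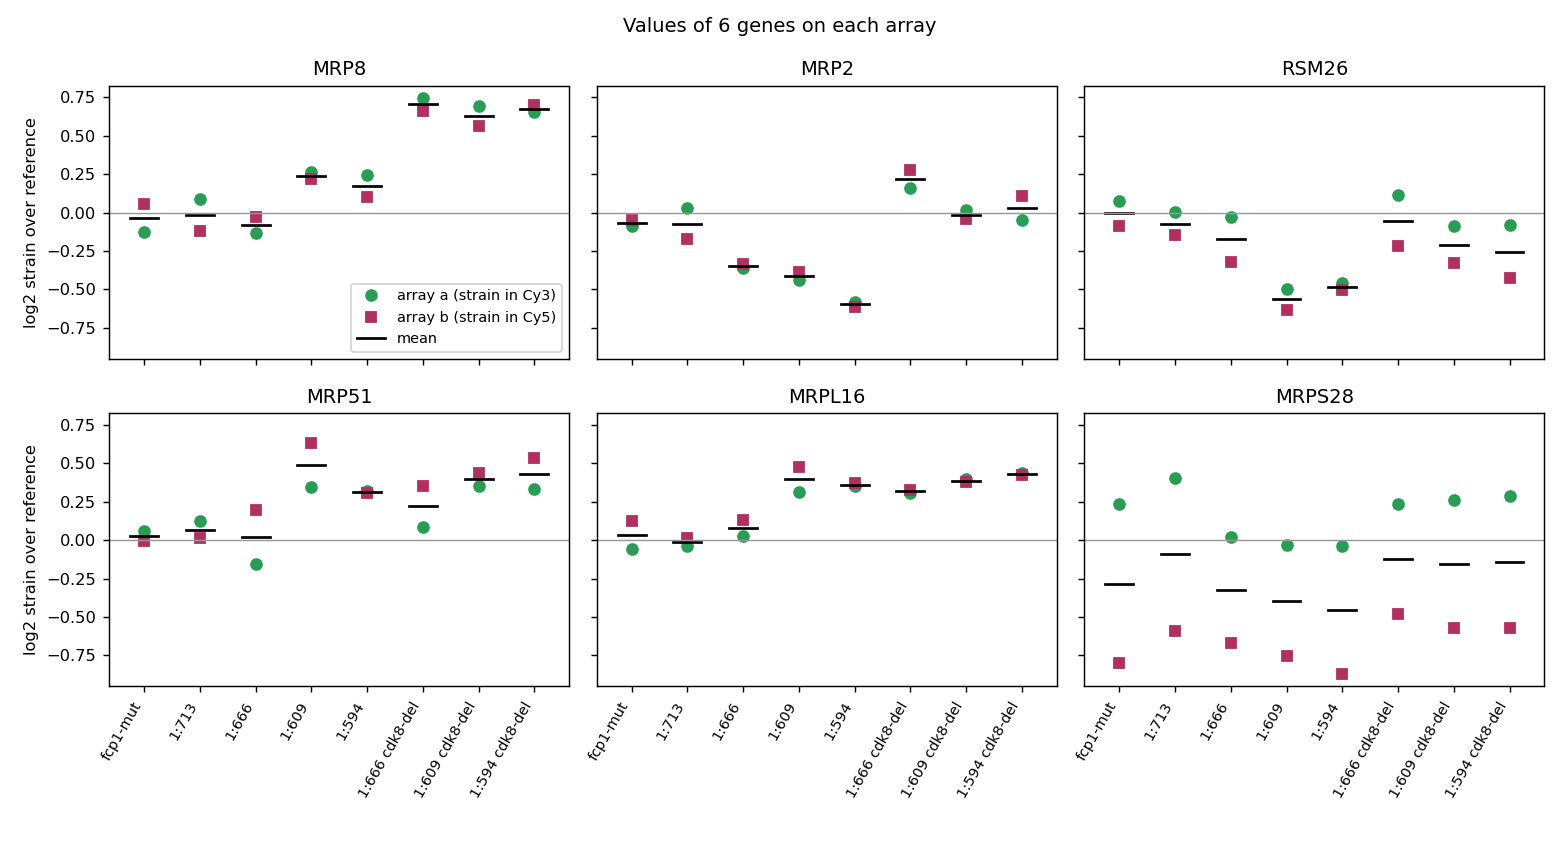
Log2 strain over reference of MRP8, MRP2, RSM26, MRP51, MRPL16 and MRPS28 in each of the 8 strains, with array a as circles, array b as squares and the mean of both as a line. MRP8 lay between 0.56 and 0.75 in the cdk8-del strains, and MRPS28 differed between arrays a and b by more than between strains.

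Which differences come with a shorter Fcp1 was examined by setting each truncation against 1:713, the longest, whose 2 arrays serve in all 3 comparisons. Among the 66 genes 0 were called, with the p adjusted or not, against 0.047% of all probes in 1:666, 1.97% in 1:609 and 1.27% in 1:594. At an adjusted p under 0.05 limma found 0 higher and 0 lower in 1:666 (all probes 0.125% and 0.532%), where the unadjusted counts were 1 and 4 (4.12% and 5.35%) and those with the block 1 and 2 (4.81% and 6.56%). In 1:609, MRP10 and MRPL16 were higher and MRP2, MRPL38 and RSM26 lower, that is 3.03% and 4.55% of the 66 against 7.17% and 10.3% of all probes (8 and 9 with the block, against 21% and 23.9%). In 1:594, MRPL16 was higher and MRP2 and MRPL38 lower, 1.52% and 3.03% against 5.73% and 6.61% (9 and 12 with the block, against 19.7% and 21.4%). A smaller share of these genes than of all probes thus passed the limit in each direction. As a group the 66 genes lay low in 1:666, with a median of -0.053 against 1:713. There 17 of the 66, 25.8%, were above 0, against 50.7% of all probes. In 1:609 and 1:594, 57.6% and 45.5% of the 66 were above 0, against 50.1% of all probes in each. With median centring instead, the 66 genes lay -0.0086 from the median of all probes in 1:666, with 30 of 66 above it. In 1:609 and 1:594 they then lay 0.091 and 0.059 above it, with 45 and 40 of 66. The low position in 1:666 thus depended on the scaling. LYS2 differed between the same strains, as given above, and its part in these values was not tested.

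MRPL16 was higher than in 1:713 by 0.41 ± 0.078 in 1:609 (limma adjusted p = 0.00525) and by 0.37 ± 0.078 in 1:594 (adjusted p = 0.0109). MRPL38 was lower, at -0.33 ± 0.070 (adjusted p = 0.00887) and -0.30 ± 0.070 (adjusted p = 0.0172). MRP2 (YPR166C), the counterpart of bacterial S14, lay in the order of allele length. On arrays a and b it was at -0.090 and -0.051 in fcp1-mut, 0.028 and -0.17 in 1:713, -0.36 and -0.33 in 1:666, -0.44 and -0.39 in 1:609 and -0.58 and -0.61 in 1:594. The pairs of 1:713, 1:666, 1:609 and 1:594 lie one below the other without overlap, in a gene named for its wide range. How many of all probes lie in such an order was not counted. The steps between 1:666, 1:609 and 1:594 were not tested. Against 1:713 the difference was -0.28 ± 0.082 in 1:666 (limma adjusted p = 0.255, or 0.0308 with the block), -0.34 ± 0.082 in 1:609 (adjusted p = 0.0166) and -0.53 ± 0.082 in 1:594 (adjusted p = 0.00254). RSM26 was lower in 1:609 by that test, at -0.49 ± 0.15 (adjusted p = 0.0494), and at -0.41 ± 0.15 in 1:594 it missed the limit (adjusted p = 0.118, or 0.000762 with the block).

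With CDK8 deleted most of these genes were slightly above their level in the matching truncation, 24 of them past the test. Averaged over the 3 truncations, the difference between the double mutant and its truncation was above 0 for 62 of the 66 genes, or 93.9%, against 48.6% of all probes. Its median was 0.16 over the 66 genes, a fold of 1.12, and -0.0050 over all probes, of which the middle 50% lay between -0.11 and 0.11. The large and the small subunit had medians of 0.15 and 0.16. Genes with a bacterial counterpart had 0.16 in both subunits, and those found in mitochondria only had 0.14 in the large and 0.16 in the small. The median of the 122 cytosolic ribosomal protein genes was -0.039, and 34 of them, 27.9%, were above 0.

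**Figure D4:**
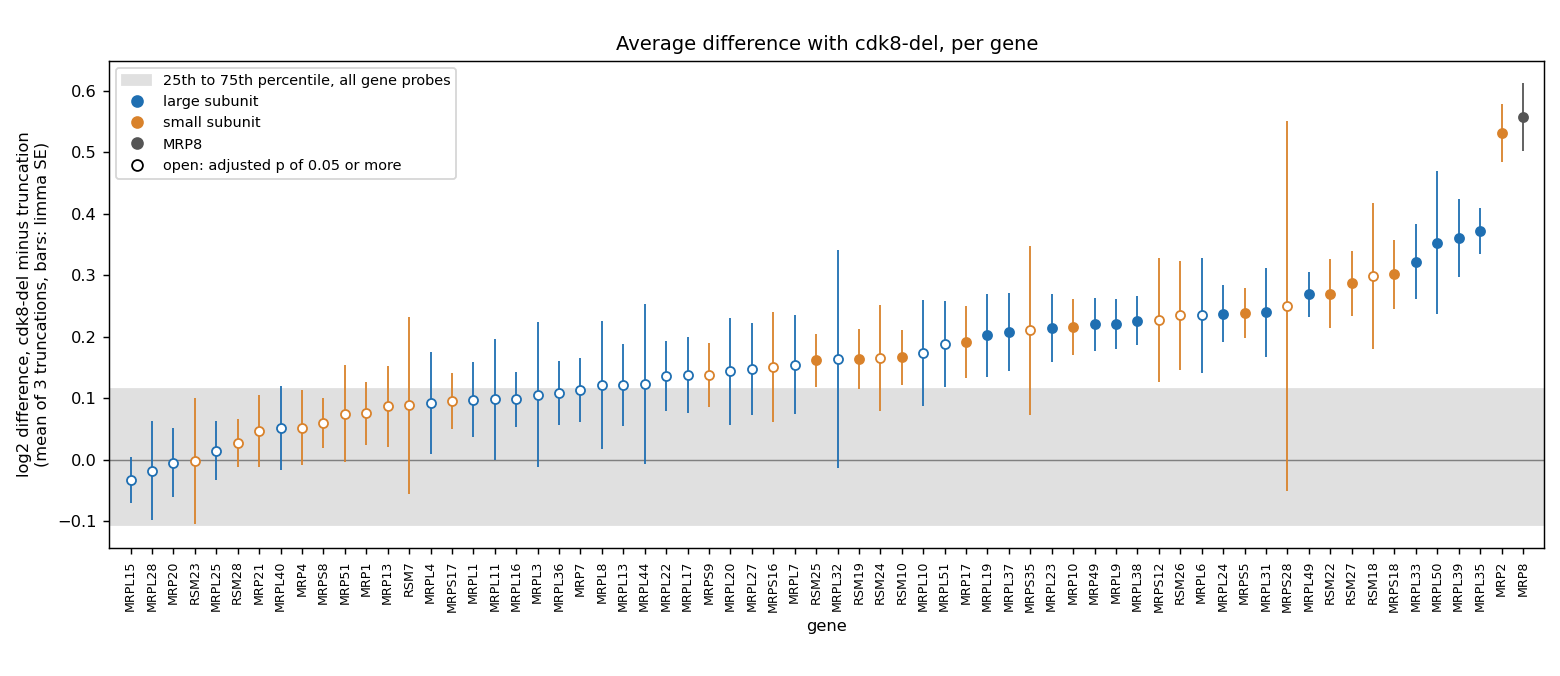
Difference between the cdk8-del strain and the strain with the same truncation, averaged over 3 truncations, for each of the 66 genes in order of size, on the log2 scale with the SE of limma. Filled points had an adjusted p under 0.05 (24 genes), the grey band is the middle 50% of all 6388 gene probes, and 62 points lie above 0.

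No gene of the group was called in the average, with 2.71% of all probes called, but 24 were higher at an adjusted p under 0.05 in limma. That is 36.4% of the 66 against 14.5% of all probes, and 13 of the 24 belong to the large subunit, 10 to the small, with MRP8 as the last. Lower were 0 of the 66, against 12.2% of all probes, and also 0 at an unadjusted p under 0.05, against 17.4%. Of the 122 cytosolic ribosomal protein genes 0 were higher and 6 lower, a smaller share than of all probes in both directions. The fit with the block put 52 of the 66 higher and 0 lower, or 78.8% and 0% against 28.3% and 27.3% of all probes. On the scale of the external control RNAs the median of all genes was shifted by 0.29 in this comparison. The 66 genes lay 0.17 above it, the same as on the main scale by construction, since that scaling moves all genes alike. With plain median centring of the arrays, without a fit along the intensity, 8 genes were higher, against 6.68% of all probes.

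The arrays can also be set side by side without a model. In 15 of the 66 genes all 6 cdk8-del arrays were above all 6 arrays of 1:666, 1:609 and 1:594, which held for 7.62% of all probes. In 0 of them all 6 were below, against 4.96% of all probes. The 15 were MRP2, MRP10, MRPS5, MRPS18, RSM19 and RSM27 of the small subunit, MRP49, MRPL23, MRPL24, MRPL33, MRPL35, MRPL38, MRPL39 and MRPL49 of the large, and MRP8. In 52 genes the difference was above 0 in each of the 3 truncations, which held for 30.7% of all probes.

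MRP8 (YKL142W) had the largest average difference among the 66. Its symbol comes from an early reading of its sequence, and it is not an established protein of the mitochondrial ribosome. On arrays a and b it was at -0.13 and -0.027 in 1:666, 0.27 and 0.22 in 1:609 and 0.24 and 0.098 in 1:594. In the double mutants it was at 0.74 and 0.66, 0.69 and 0.56 and 0.65 and 0.70, all above every other array of the study. The average difference was 0.56 ± 0.055 (limma adjusted p = 2.91e-05). In 1:666 alone it was 0.78 ± 0.095, a fold of 1.72 (adjusted p = 0.000242), and this was the only call among the 66 genes in any of the 15 comparisons. The call lies just past the fold limit: it was 0.73 without array a of 1:666, 0.74 without array a of 1:666 cdk8-del and 0.71 with the deposited ratios or with print-tip lowess, none of which reached the fold limit. With median centring it was 0.68 and the limma adjusted p was 0.118. In fcp1-mut and 1:713 MRP8 was at -0.12 and 0.058 and 0.092 and -0.12.

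Next came MRP2, which was lower than in 1:713 in 1:609 and 1:594. It was at 0.16 and 0.28 in 1:666 cdk8-del, 0.017 and -0.043 in 1:609 cdk8-del and -0.046 and 0.11 in 1:594 cdk8-del, and the averaged difference was 0.53 ± 0.047 (limma adjusted p = 1.29e-05). These comparisons use the same truncation arrays as those against 1:713 above, so a low truncation array enters both. All 6 values were above the 6 of the truncations, whose highest was -0.33. With median centring the averaged difference was 0.41 and the adjusted p 0.157. Its neighbours on the chromosome are RHO1 and MET16, at 0.24 ± 0.065 (adjusted p = 0.0193) and 0.015 ± 0.067 (adjusted p = 0.908) in the same comparison. The neighbours of MRP8 are LTV1, at -0.28 ± 0.052 (adjusted p = 0.00212), and SDH3, at 0.37 ± 0.18 (adjusted p = 0.158).

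In the large subunit the highest average differences were those of MRPL35, MRPL39, MRPL50, MRPL33 and MRPL49. MRPL35 (YDR322W), a protein of the mitochondrial lineage, lay between -0.20 and -0.0026 on the 6 truncation arrays. Its values were 0.35 and 0.34 in 1:666 cdk8-del, 0.28 and 0.18 in 1:609 cdk8-del and 0.27 and 0.31 in 1:594 cdk8-del. The difference was 0.37 ± 0.038 (limma adjusted p = 3.65e-05), and 0.33 with an adjusted p of 0.0862 after median centring. MRPL39 (YML009C), the counterpart of bacterial L33, ranged from -0.27 to 0.015 on the truncation arrays and from 0.078 to 0.34 on the cdk8-del arrays. Its difference was 0.36 ± 0.064 (adjusted p = 0.00171, or 0.223 after median centring). MRPL50, the counterpart of bacterial L9, was less secure in the fit without the block, with a difference of 0.35 ± 0.12 (limma adjusted p = 0.0449). The adjusted p was above 0.05 in 7 of the 12 fits without 1 of the arrays compared. Array a was above array b in each of the 8 strains, an offset that the block removes. With the block its adjusted p was 0.00446 for cdk8-del in 1:609 and 0.00366 in 1:594.

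MRPL33, the counterpart of bacterial L30, was at -0.29 to -0.080 on the truncation arrays and -0.00064 to 0.31 on the cdk8-del arrays, with a difference of 0.32 ± 0.061 (limma adjusted p = 0.0026). MRPL49, the counterpart of bacterial L21, had -0.26 to -0.12 and -0.016 to 0.25, with a difference of 0.27 ± 0.037 (adjusted p = 0.000291). The 2 ranges did not overlap for either gene. Another 8 genes of the subunit passed with differences between 0.20 (MRPL19) and 0.24 (MRPL31). At the other end of the subunit were MRPL15 at -0.033 ± 0.037, MRPL28 at -0.018 ± 0.081 and MRP20 at -0.0047 ± 0.057, none of which passed the limit. MRPL16, high in the 2 shortest truncations, was at 0.098 ± 0.045 in the average and did not pass either (adjusted p = 0.141).

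The small subunit was led, after MRP2, by MRPS18, RSM18, RSM27 and RSM22. MRPS18, the counterpart of bacterial S11, was between -0.17 and 0.0034 on the truncation arrays and between 0.15 and 0.40 on the cdk8-del arrays. Its difference was 0.30 ± 0.056 (limma adjusted p = 0.00244), and that of RSM27, whose 6 cdk8-del arrays were also above the other 6, was 0.29 ± 0.052 (adjusted p = 0.00211). MRPS5, the counterpart of bacterial S5, had closer arrays: -0.17 to -0.049 against 0.10 to 0.25, a difference of 0.24 ± 0.040 (adjusted p = 0.00128). RSM22 was at 0.27 ± 0.056 (adjusted p = 0.00443). The smaller differences of this subunit that passed were those of RSM25 at 0.16, RSM19 at 0.16, RSM10 at 0.17, MRP17 at 0.19 and MRP10 at 0.22. RSM18, the counterpart of bacterial S18, was at 0.30 ± 0.12, close to the value of MRPS18, but its arrays a and b differed and it missed the limit (adjusted p = 0.0907, or 0.00158 with the block). RSM23 was the only small-subunit gene below 0, at -0.0021 ± 0.10.

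Taken by truncation, the median difference with cdk8-del was 0.20 in 1:666 (64 of 66 genes above 0), 0.13 in 1:609 (56 of 66) and 0.18 in 1:594 (61 of 66). MRP8 was the only gene called in 1:666, where 3.99% of all probes were called, and 0 were called in 1:609 and in 1:594, with 1.63% and 2.14% of all probes. At an adjusted p under 0.05 limma found 14 genes higher in 1:666, or 21.2% against 9.78% of all probes. In 1:609 it was 3, or 4.55% against 4.7%, and in 1:594 it was 6, or 9.09% against 5.56%. With the block it was 35, 21 and 33, or 53%, 31.8% and 50% of the 66, against 21.6%, 16.1% and 18.1% of all probes. The 3 in 1:609 were MRP2, MRP8 and MRPL35, and the 6 in 1:594 were these with MRPL39, MRPL49 and RSM22. Lower were 0 in each comparison, against 5.81%, 2.14% and 3.22% of all probes. It was also 0 unadjusted, against 11.1%, 7.62% and 10.1%, and with the block, against 18.2%, 13.6% and 15.7%. With 1 of the 4 arrays of a comparison left out, the counts lay between 4 and 8 in 1:666, 0 and 1 in 1:609, and 1 and 7 in 1:594.

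Whether the effect of cdk8-del differed between truncations was tested by the difference of the differences. At an adjusted p under 0.05 limma found 0 of the 66 genes between 1:609 and 1:666, 0 between 1:594 and 1:666 and 0 between 1:594 and 1:609, where 0.157%, 0.344% and 0.125% of all probes passed. Unadjusted p-values were under 0.05 for 2, 0 and 4 of the 66. In the fit with the block only MRPS12 passed, between 1:594 and 1:666, where 7.44% of all probes did. MRP8, at 0.78 in 1:666, 0.39 in 1:609 and 0.51 in 1:594, was with MRPL16 one of the 2 genes with an unadjusted p under 0.05 between 1:609 and 1:666, and its adjusted p was 0.452.

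The strains compared for cdk8-del differed in more than CDK8. MET17, a methionine synthesis gene often deleted as a strain marker and named here after its values were seen, was at -4.51 in 1:666, -4.92 in 1:609 and -4.54 in 1:594. In the double mutants it was at -0.051 for 1:666 and -0.44 for 1:594, but at -4.64 for 1:609. The pair of 1:609 strains, which was alike in MET17, had the lowest of the 3 medians, 0.13, with 56 of 66 genes above 0. The part of this difference in the result was not tested.

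Other genes of mitochondrial translation were counted in the cdk8-del comparison averaged over the truncations, as lists written from general knowledge. Of the 64 entries 60 had a probe. Among all probes 14.5% were higher and 12.2% lower in this comparison, and 48.6% were above 0. Mitochondrial ribosomal proteins with other symbols had a median of 0.14, with 11 of 12 above 0, and RML2, MNP1 and IMG1 were higher while EHD3 was lower. RML2, the counterpart of bacterial L2, was at 0.35 ± 0.087 (limma adjusted p = 0.0128) and EHD3, an enzyme-like protein found with the small subunit, at -0.19 ± 0.064 (adjusted p = 0.0479). The activators that help single mitochondrial messages to be translated had a median of 0.14, with 15 of 15 above 0. Of the 15, 2 were higher, near the share of all probes. They were PET54 at 0.35 ± 0.056 (limma adjusted p = 0.000866) and CBS1 at 0.17 ± 0.054 (adjusted p = 0.0413). Translation and release factors had a median of 0.071 with 9 of 9 above 0, but 0 passed the limit in either direction in limma. At an unadjusted p under 0.05, 3 were above 0, against 19.2% of all probes.

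The remaining lists showed less, with shares of higher and lower genes near or below those of all probes. Mitochondrial aminoacyl-tRNA synthetases had a median of 0.094 with 8 of 13 above 0, 2 higher (MSD1 and MSF1) and 1 lower (MSR1). Assembly factors had a median of -0.034 with 3 of 8 above 0, and MBA1, a ribosome receptor of the inner membrane, was higher at 0.24 ± 0.077 (limma adjusted p = 0.0384). The 2 genes of the mitochondrial RNA polymerase, RPO41 and MTF1, had a median of 0.10 and neither passed, with 1 at an unadjusted p under 0.05. PUF3, whose protein binds many messages of the group, was at 0.016 ± 0.051 (adjusted p = 0.87). The elongation factor gene MEF2 was the only called gene of these lists in a comparison with the reference. It was at 0.81 ± 0.093 in 1:594 cdk8-del, a fold of 1.75 (limma adjusted p = 6.79e-05), where 4.57% of all probes were called. MEF2 was also higher than the reference in 1:609 at 0.65, in 1:594 at 0.42 and in 1:609 cdk8-del at 0.59. Its difference with cdk8-del was -0.054 in 1:609. In 1:594 it was 0.39 (limma adjusted p = 0.0993, or 0.00354 with the block).

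The 2 subunits differed between the array letters, which coincide with the dye orientation. On all 8 arrays lettered a, with the strain in Cy3, the median of the large subunit was below that of the small, and on all 8 lettered b, with the strain in Cy5, it was above. In the strain means, where both orientations enter, the large median minus the small lay between -0.014 and 0.052. MRPS28, the counterpart of bacterial S15, had the largest such difference among the genes named: it was at 0.23 and -0.80 in fcp1-mut and at 0.24 and -0.48 in 1:666 cdk8-del. Its mean difference of b minus a was -0.83, against an SD of 0.23 over all probes, and its mean over the 8 strains, -0.25, stands between the 2 sets. RSM26 and MRPS16, the genes next to it in that order, had means of -0.23 and -0.16, so the order of these 3 is not secure.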

How the data were processed

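The authors deposited, per the file headers, a mean spot intensity and a median local background intensity for each channel, with nothing subtracted. A second deposited table, of log2 ratios scaled to total mRNA per the labels of the series, correlated at 0.621 to 0.977 with the values used here and was an alternative. Background was removed with normexp (offset 50). Each array was scaled by a lowess curve (span 0.4, 3 robust iterations) through its 12776 gene spots, the sign was set to strain over reference, and the 2 spots of each probe were averaged. Of the probes, 5326 carried 1 symbol in the platform annotation, 5324 matched RefSeq assembly R64 and 58 symbols were updated; the arrays' own build was not stated, so R64 gave names and neighbours only. All 16 arrays entered 1 model in limma 3.58.1 (R 4.3.3; 8 residual and 2.57 prior degrees of freedom), two-sided, adjusted over 6388 probes, with n = 2 arrays per strain.

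The genes, lists and tests were chosen with earlier results of these data known. Named were called genes, the 3 highest, lowest and most variable of each subunit by strain mean, MRP8, FCP1, SSN3 and up to 3 called genes per list; the largest cdk8-del differences and genes of small counts were added after their values were seen. Array letter and dye orientation coincide. With strain means removed, arrays of the same letter deviated together in 28 of 28 pairs of strains (correlation 0.599 to 0.914, median 0.813), so the fit with the letter as a replicate block is given where it moved a count. Alternatives were 2 background settings, 3 scalings, the deposited ratios, a filter on dim probes (3 background SDs), the block, each array left out and an unadjusted p. The pipeline was tested on simulated data. Figures used matplotlib 3.10.9 and pandas 2.3.3 (Python 3.11.15). No sequences were at hand, so none are shown.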

Additional observations from a re-analysis of the deposited data

How the results depend on the processing

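The number of called genes stayed at 0 in 14 comparisons under every alternative except scaling on the external control spots. That scaling shifts all genes together. Against the reference it gave 18 called in fcp1-mut, 8 in 1:666, 17 in 1:609 and 6 in 1:594. For cdk8-del it gave 3 in 1:609 and 2 on average. Of all 6388 gene probes, it called 1700, 710, 1802 and 890 in the same strains against the reference. For cdk8-del it called 355 of all probes in 1:609, 343 on average and 507 in 1:666. The calls among all probes thus rose in the same comparisons, and these counts do not set the group apart. The 1 call for cdk8-del in 1:666, MRP8, became 6 on that scale and 0 with print-tip lowess, median centring or the deposited log2 ratios and, by construction, without MRP8; it ranged from 0 to 1 with 1 array left out. The counts higher at an adjusted p under 0.05 for cdk8-del in 1:666, in 1:609, in 1:594 and on average were 14, 3, 6 and 24. With median centring they were 0, 0, 0 and 8 (2.97%, 1.52%, 1.17% and 6.68% of all probes), on the external control scale 36, 51, 2 and 63 (24.9%, 38.3%, 3.43% and 58.6%), with the deposited ratios 32, 17, 23 and 47 (20.4%, 13.9%, 15.6% and 27%), and with the replicate block 35, 21, 33 and 52 (21.6%, 16.1%, 18.1% and 28.3%). With 1 array left out the first 3 ranged from 4 to 8, 0 to 1 and 1 to 7. The median of the large subunit for cdk8-del on average was 0.15, or 0.44 on the external control scale and 0.12 to 0.19 with 1 array left out. That of the small subunit was 0.16, or 0.46 on the external control scale, 0.14 with median centring and 0.14 to 0.19 with 1 array left out. Beyond the counts and genes given with the block in the report, the replicate block changed no call. No tested result reversed, while medians near 0, among them those of the cdk8-del strains against the reference, turned sign on the external control scale. Apart from the shift under external control scaling and the fewer arrays of the fits with 1 left out, the cause of these moves was not tested. The number of arrays, 2 a strain, limits the precision.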
